A study of Mus musculus with 4 samples.

Results

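Fecal bacteria of 6 mice given vancomycin into a vein were compared on day 4 with those of 6 mice given phosphate-buffered saline (PBS) into a vein. The members were chosen by the deposited sample sheets: day 4, route IV, and either Vancomycin or PBS as the agent. They are 12 of the 198 fecal libraries of the series, and each has a day 0 library of the same mouse. All mice were wild-type C57BL6/J aged 8 to 12 weeks, kept specific-pathogen-free on standard chow. Each dose held 2.5 mg of vancomycin in 100 µl of PBS, or 100 µl of PBS alone. Doses were given 2 times a day on 3 days and once on day 4, and the mice were killed 4 hours after the last dose. The series also holds ampicillin, metronidazole, neomycin and a mix of all, by mouth and into the peritoneum as well. The measurement is 16S rRNA gene sequencing of the V4 region, in which a stretch of a gene that all bacteria carry is amplified and read to name the bacteria present. Values are percent of the reads of a library, so a fall of 1 taxon and a rise of the others cannot be told apart, and fewer bacteria in all leave no trace.

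Vancomycin is a glycopeptide that binds the ends of cell wall precursors. Gram-positive bacteria expose their wall to it, whereas the outer membrane of Gram-negative bacteria keeps the large molecule out. It is poorly absorbed from the gut, and a dose given into a vein leaves the body mainly through the kidney. The mouse gut is usually dominated by Muribaculaceae, Gram-negative fibre degraders of the phylum Bacteroidota, and by Lachnospiraceae and Oscillospiraceae, Gram-positive fermenters of the class Clostridia. Enterobacteriaceae such as Escherichia are usually scarce there and can grow with or without oxygen.

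Replicates 1 to 3 of both groups were sequenced in a run named ok122 and replicates 4 to 6 in a run named SB1, while all 12 day 0 libraries came from ok122. Day 4 libraries held 7877 to 153407 reads (median 23354) with vancomycin and 8556 to 38424 reads (median 21772) with PBS, as recovered from the step between the deposited values. At day 0 they held 407 to 37123 reads in the later vancomycin mice and 529 to 13948 in the later PBS mice. No pair of the 30 pairs of day 4 libraries within these groups agreed within sampling noise. Vancomycin replicates 2 and 3, both of run ok122, stood apart from the other 4 vancomycin libraries and are named beside many of the results they touch. The sources used here do not say which mice shared a cage.

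At day 4, Parabacteroides, Escherichia and Bacteroides together led the libraries of 4 of the 6 vancomycin mice. In vancomycin mouse 1 (ok122), Parabacteroides_B_862066, a gut genus of Bacteroidota, took 69.5% of reads, Escherichia_710834 took 20.8% and Bacteroides_H, a polysaccharide degrader, took 4.11%. Mouse 4 (SB1) held 52.2%, 22.02% and 19.9% of the same genera in that order. Mouse 5 (SB1) held 42.9%, 23.4% and 16.3%. Mouse 6 (SB1) was led by Bacteroides_H at 45.8%, with Escherichia_710834 at 31.0% and Parabacteroides_B_862066 at 19.1%. Thus 3 genera held 82.7% to 95.9% of reads in these 4 mice, and 2 to 4 genera were enough to reach 90% of reads.

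The other 2 vancomycin mice, both of run ok122, kept a mixed community led by Muribaculaceae genera. Mouse 2 held Duncaniella at 17.9%, the mucin degrader Akkermansia at 17.8% and UBA7173, a Muribaculaceae genus known by its genome code, at 17.7%. Mouse 3 held Duncaniella at 33.9%, UBA7173 at 15.9% and unclassified Muribaculaceae at 13.9%. In these mice 10 and 12 genera were needed to reach 90% of reads, against 8 to 13 in the PBS mice.

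Every PBS mouse was led by Prevotella or by a Muribaculaceae genus. Prevotella, a plant fibre degrader, led PBS mice 1 (34.01%, ok122) and 4 (41.2%, SB1). Duncaniella led PBS mice 2 (16.6%, ok122), 5 (24.3%, SB1) and 6 (24.2%, SB1). CAG-485, also a Muribaculaceae genus, led PBS mouse 3 (17.8%, ok122).

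**Figure D1:**
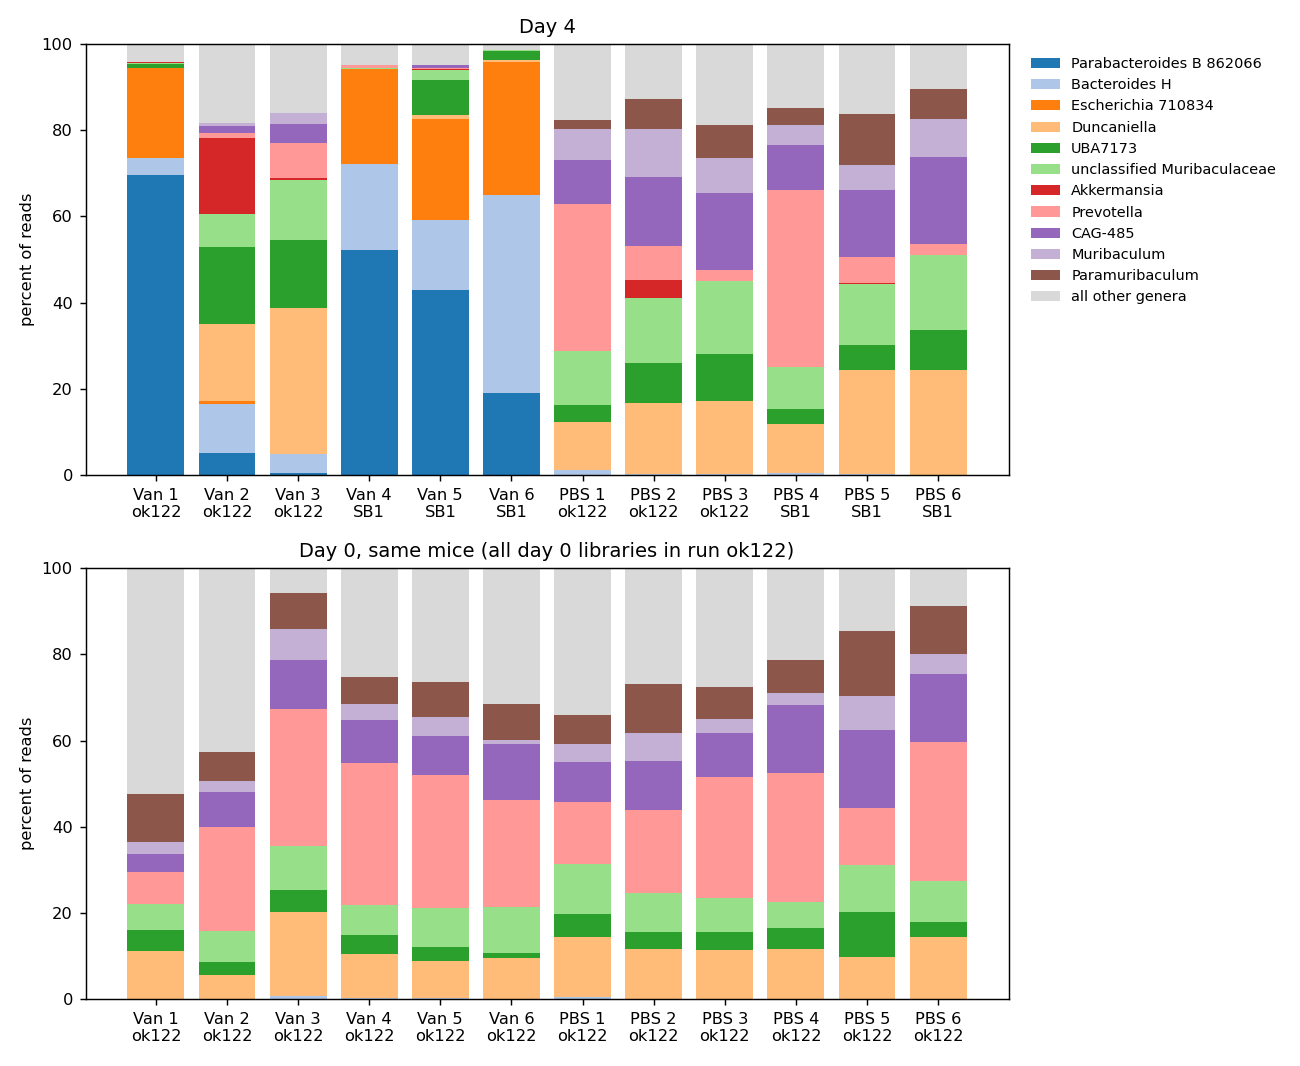
Stacked bars of the percent of reads (vertical axis) in each of the 12 mice at day 4 (top) and in the same mice at day 0 (bottom), by genus, for the 11 genera that reached 10% in a day 4 library. Parabacteroides, Bacteroides and Escherichia (dark blue, light blue, dark orange) fill vancomycin mice 1, 4, 5 and 6 at day 4, while mice 2 and 3 and all PBS mice are led by Prevotella or a Muribaculaceae genus.

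Species names were available for part of these reads. Reads named Parabacteroides distasonis made up 69.0% of vancomycin mouse 1, 4.89% of mouse 2 and 0.368% of mouse 3 in run ok122. In run SB1 they made up 52.1%, 42.9% and 16.9% of mice 4, 5 and 6. In the PBS mice the same name reached at most 0.0221%. Bacteroides intestinalis held 32.5% of vancomycin mouse 6, 19.7% of mouse 4, 16.2% of mouse 5, 4.11% of mouse 1 and 0.828% of mouse 2, and was listed at 0 in mouse 3. Bacteroides reads with no species name made up 12.4% of mouse 6, 10.6% of mouse 2 and 2.42% of mouse 3, and at most 0.261% of the other vancomycin mice. Bacteroides acidifaciens held 1.88% of mouse 3 and 0.907% of mouse 6 and was listed at 0 in the other mice. Bacteroides intestinalis was thus the larger share in mice 1, 4, 5 and 6, and reads with no species name in mice 2 and 3. The Escherichia reads carried no species name in any library, and all Akkermansia reads were named Akkermansia muciniphila_D_776786.

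Across the 95 genera tested at day 4, 40 passed the threshold (42.1%) in limma's fit on log2(percent + 0.01), at an adjusted p under 0.05. Of these, 4 rose (4.21% of the genera tested) and 36 fell (37.9%). The spread behind these tests and their standard errors was pooled over all 18 day 4 groups, not taken from these 12 mice alone. Centring each library on the mean of its log values gave 12 higher and 18 lower in place of 4 and 36, and moved the median difference of all genera from -1.14 to 0.25 on the log2 scale. Among the 12 was Coprocola, which was listed at 0 in every mouse of both groups, so a higher centred value need not mean more reads. The count was 23 with each mouse's own day 0 library as baseline and 23 of 59 genera in libraries thinned to 1000 reads. An exact permutation test per genus gave 14, of which 2 were higher (Parabacteroides_B_862066 and Bacteroides_H) and 12 lower.

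The 4 genera that rose were all Gram-negative. Parabacteroides_B_862066 ranged from 0.521% to 69.5% (median 31.0%) with vancomycin and from 0% to 0.0536% (median 0.0389%) with PBS. Every vancomycin mouse lay above every PBS mouse, the lowest being mouse 3. The log2 difference was 8.65 ± 1.32 (SE; limma adjusted p = 2.06e-07). Bacteroides_H also did not overlap, with 4.11% to 45.8% (median 13.9%) against 0.152% to 1.21% (median 0.208%). Its log2 difference was 5.30 ± 1.30 (SE; limma adjusted p = 0.000600). All 3 vancomycin mice of run SB1 exceeded those of run ok122 in this genus.

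Escherichia_710834 held 20.8% of reads in vancomycin mouse 1, 0.579% in mouse 2 and none of 7877 reads in mouse 3. It held 22.02%, 23.4% and 31.0% in mice 4, 5 and 6. PBS mouse 1 held 0.0419% and the other PBS mice were listed at 0, as were all 12 mice at day 0. A count of 0 in vancomycin mouse 3 allows a share of up to 0.0381% (3 reads), so that mouse overlapped the PBS mice while the other 5 lay above them. The log2 difference was 8.07 ± 1.49 (SE; limma adjusted p = 1.25e-05), and since most PBS libraries were at 0 its size depends on the pseudocount. Mailhella, a relative of Desulfovibrio, was a rare genus that rose as well. It held 0.170% to 0.333% in 5 vancomycin mice and was listed at 0 in mouse 3, against 0% to 0.0307% in PBS mice, a log2 difference of 3.54 ± 0.71 (SE; limma adjusted p = 5.59e-05).

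The 36 genera that fell had log2 differences from -8.65 to -1.08 (median -3.40). They held 83.7% to 91.4% of reads in the PBS mice. In vancomycin mice 1, 4, 5 and 6 the same genera held 0.513%, 0.983%, 4.56% and 0.713%, in mouse 2 34.4% and in mouse 3 70.7%. In the order of mice 1 to 6, 31, 24, 18, 28, 22 and 31 of the 36 were listed at 0, against 0 to 11 in the PBS mice. These sums describe genera that the same comparison chose and were not tested.

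Muribaculaceae averaged 23.3% ± 30.9 (SD, n = 6) of reads with vancomycin and 71.7% ± 18.9 (SD, n = 6) with PBS. The family held 0.404% to 73.5% of reads (median 7.47%) with vancomycin and 45.7% to 90.1% (median 80.9%) with PBS. Of its 8 genera tested, 7 fell and 0 rose, against 37.9% lower over all genera tested, with a median log2 difference of -4.90 against -1.14. With centred values 4 of the 8 fell. Paramuribaculum held 2.27% to 11.7% of reads in PBS mice (median 7.03%). It was listed at 0 in vancomycin mice 1, 2, 3 and 6 and held 0.0188% and 0.0215% in mice 4 and 5. No vancomycin mouse reached the PBS range, mice 2 and 3 included, and the log2 difference was -8.65 ± 1.11 (SE; limma adjusted p = 1.19e-09).

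Muribaculum fell by 6.94 ± 1.26 on the log2 scale (SE; limma adjusted p = 1.19e-05). It held 2.67% in vancomycin mouse 3, 0.539% in mouse 2 and at most 0.0209% in the other 4, against 4.55% to 11.2% in PBS mice. UBA3263 and CAG-485, 2 more genera of the family, also lay below every PBS mouse in all 6 vancomycin mice. Their log2 differences were -5.68 ± 1.17 and -5.57 ± 1.37 (SE; limma adjusted p = 6.01e-05 and 0.000600). Thus 4 of the 8 lay wholly below the PBS mice, against 10 of all 95 genera tested (10.5%), and 2 of the 95 lay wholly above (2.11%).

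Other Muribaculaceae differed between the mice of the vancomycin group. Duncaniella held 17.9% in mouse 2 and 33.9% in mouse 3, and 0.0212% to 0.810% in the other 4, against 10.96% to 24.3% in PBS mice. Mouse 3 therefore lay above all PBS mice and 4 mice lay below them, and the log2 difference was -4.24 ± 1.38 (SE; limma adjusted p = 0.00815). Without vancomycin mouse 1 it was -3.28 with an adjusted p of 0.0566 by limma. The call was also lost with run as a block (limma adjusted p = 0.0515) and with centred values (0.0522). Unclassified Muribaculaceae fell by 3.47 on the log2 scale (limma adjusted p = 0.0160), and its adjusted p was 0.0543, 0.0578 and 0.0576 by limma without vancomycin mouse 1, 4 or 6 and 0.123 with centred values. UBA7173 did not pass the threshold, with 0.0329% to 17.7% in vancomycin mice and 3.30% to 10.9% in PBS mice. Vancomycin mice 2 (17.7%) and 3 (15.9%) lay above all PBS mice, and 3 vancomycin mice lay below them.

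Among the other Bacteroidota, Prevotella fell by 4.32 ± 1.20 on the log2 scale (SE; limma adjusted p = 0.00240). It held 8.04% in vancomycin mouse 3 and 0.0424% to 1.19% in the others, against 2.69% to 41.2% in PBS mice. All vancomycin mice but mouse 3 lay below the PBS range. Odoribacter_865974, a producer of short-chain fatty acids, was listed at 0 in 4 vancomycin mice and held 0.00196% in mouse 5 and 0.571% in mouse 3. The PBS mice held 0.0608% to 0.463%, so mouse 3 was above all of them and the other 5 below (log2 difference -3.57, limma adjusted p = 0.00273). Alistipes_A_871400 of the same order did not pass the threshold. It held 0.0562% in vancomycin mouse 6 and 1.25% to 2.99% in the others, against 0.375% to 2.37% in PBS mice. Its parts went opposite ways, which was not tested. The species sp002362235 had a median of 1.46% with vancomycin and 0.0225% with PBS, with 4 vancomycin mice above all PBS mice. Reads of the genus with no species name had medians of 0.0147% and 1.02%, with 5 vancomycin mice below all PBS mice and 1 above.

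**Figure D2:**
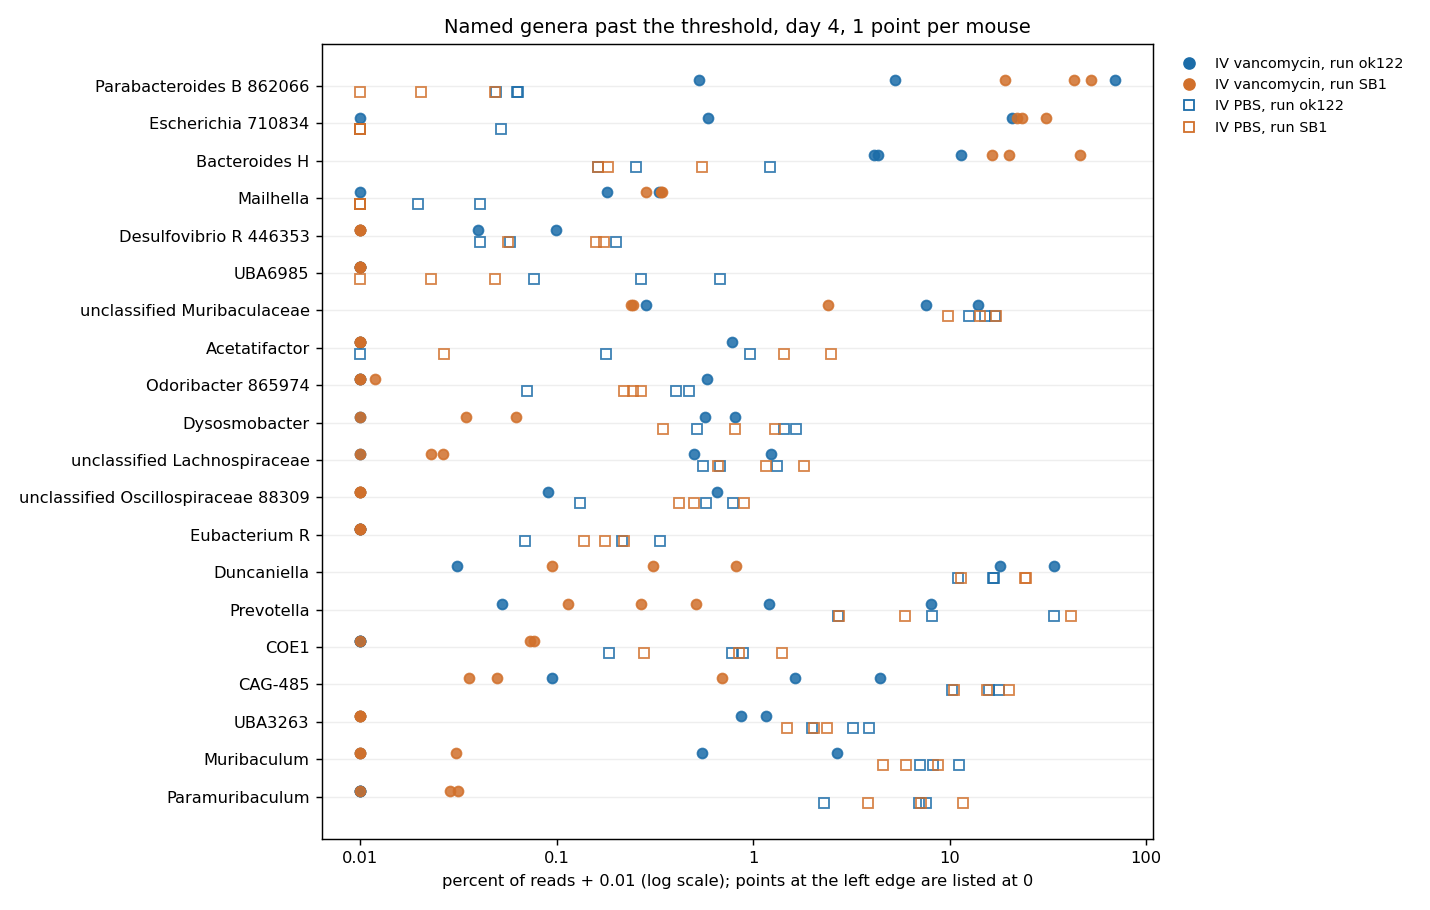
Percent of reads plus 0.01 (horizontal axis, log scale) of the 20 named genera that passed the threshold, 1 point for each mouse, filled circles for intravenous vancomycin and open squares for intravenous PBS, coloured by run. Parabacteroides and Bacteroides lie above the PBS mice in all 6 vancomycin mice, and Paramuribaculum, Muribaculum, UBA3263, CAG-485, COE1 and Eubacterium_R below them.

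Gram-positive genera fell about as often as genera in all. Of the 65 tested from the Firmicutes divisions and Actinobacteriota, a list that also takes in orders without a cell wall, 25 fell and 0 rose, against 37.9% lower over all genera tested, with a median log2 difference of -1.28 against -1.14. Of the 26 tested Gram-negative genera 4 rose and 11 fell. Centred values gave 6 higher and 11 lower among the Gram-positive genera and 6 higher and 7 lower among the Gram-negative ones. Of the 6 higher Gram-positive genera, Coprocola was listed at 0 in every mouse of both groups. Unclassified Anaerovoracaceae was listed at 0 in all vancomycin mice and found in 2 PBS mice. Lachnospira and Ruthenibacterium were each found in 1 vancomycin mouse and 1 PBS mouse. The summed reads of the Gram-positive list ranged from 0.0721% to 6.97% (median 1.09%) with vancomycin and from 5.05% to 11.2% (median 10.1%) with PBS, with mouse 3 the highest of the vancomycin mice.

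Lachnospiraceae, a family with many butyrate producers, had 12 of 27 genera lower and 0 higher, near the 37.9% lower over all genera tested, and 4 lower and 1 higher with centred values. The 1 higher, Lachnospira, was found in 1 vancomycin mouse and 1 PBS mouse. The family was listed at 0 in vancomycin mouse 1 and held 0.0864% to 0.168% in mice 4, 5 and 6, 3.59% in mouse 2 and 3.75% in mouse 3, against 1.77% to 7.50% in PBS mice. COE1, a genus of this family, was listed at 0 in 4 vancomycin mice and held 0.0634% and 0.0665% in mice 4 and 5. The PBS mice held 0.174% to 1.40%, without overlap, and the log2 difference was -4.92 ± 0.98 (SE; limma adjusted p = 4.91e-05). Reads of the family with no genus name fell by 4.02 on the log2 scale (limma adjusted p = 0.00602). In vancomycin mouse 3 they held 1.22%, within the PBS range of 0.543% to 1.80%, and the other 5 vancomycin mice lay below that range. Acetatifactor, a Lachnospiraceae genus first described from the mouse caecum, was detected in 1 vancomycin mouse (mouse 3, 0.774%) and in 5 PBS mice (up to 2.48%). Its log2 difference was -3.50 (limma adjusted p = 0.0204), and its adjusted p was 0.0566, 0.0807 and 0.0584 by limma without PBS mouse 1, 5 or 6. The call was also lost with run as a block (limma adjusted p = 0.0998), with centred values (0.180) and from own day 0 baselines (0.121).

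Families of the order Oscillospirales had 8 of 14 genera lower and 0 higher, against 37.9% lower over all genera tested, and 5 lower and 1 higher with centred values. The 1 higher, Ruthenibacterium, was found in 1 vancomycin mouse and 1 PBS mouse. Together the families held 0% to 0.0519% in vancomycin mice 1, 4, 5 and 6, 0.669% in mouse 2 and 2.21% in mouse 3, against 1.06% to 3.83% in PBS mice. Dysosmobacter, a butyrate producer, fell by 3.68 on the log2 scale (limma adjusted p = 0.00676), and unclassified Oscillospiraceae_88309 fell by 4.03 (limma adjusted p = 0.00106). Both overlapped the PBS mice. Dysosmobacter held 0% to 0.800% with vancomycin against 0.339% to 1.65% with PBS, with 4 vancomycin mice below the PBS range. Unclassified Oscillospiraceae_88309 held 0% to 0.647% against 0.122% to 0.884%, with 5 vancomycin mice below. Eubacterium_R was listed at 0 in all 6 vancomycin mice and held 0.0586% to 0.326% in all 6 PBS mice (limma adjusted p = 8.61e-05). UBA6985, of an order that lacks a cell wall, was likewise listed at 0 in all vancomycin mice and held up to 0.669% in PBS mice (limma adjusted p = 5.65e-05). It was 1 of 3 tested genera without a wall, and the other 2 did not pass.

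The remaining lists moved little or were scarce. Of 4 tested genera of Lactobacillales, none passed. Ligilactobacillus held up to 0.147% in 3 vancomycin mice and was listed at 0 in all PBS mice, and passed with centred values alone (2.89, limma adjusted p = 0.0268). Of 3 Desulfovibrionaceae, Mailhella rose and Desulfovibrio_R_446353, another sulfate reducer, fell by 2.36 on the log2 scale (limma adjusted p = 0.00596). That call was lost with centred values (-0.97, limma adjusted p = 0.252), a pseudocount of 0.1 (0.0785) and own day 0 baselines (0.0863), and the centred list had 2 higher and 0 lower. Akkermansia, the only Verrucomicrobiota genus, did not pass, with 17.8% in vancomycin mouse 2, 4.06% in PBS mouse 2 and under 0.4% in the other 10 mice. Genera common in reagents, on skin or in food reached at most 0.0141% of reads in a vancomycin mouse and 0.126% in a PBS mouse, with Streptococcus and Burkholderia, the 2 tested, not past the threshold.

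At family level 12 of 39 families tested passed (30.8%), 2 higher and 10 lower, by limma on the same scale. The 2 higher were Tannerellaceae, which holds Parabacteroides, and Enterobacteriaceae_A. Bacteroidaceae, which holds both Bacteroides and Prevotella, did not pass, with 4.17% to 45.9% with vancomycin and 2.89% to 41.8% with PBS. Within it 1 genus rose and 1 fell.

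Of 11 phyla, 5 differed (45.5%) by two-sided exact permutation tests adjusted over the 11. Proteobacteria averaged 16.7% ± 12.7 (SD, n = 6) with vancomycin and 0.221% ± 0.185 (SD, n = 6) with PBS, higher in 6 of 6 mice than in any PBS mouse (exact adjusted p = 0.0238). Its lowest vancomycin values were 0.647% in mouse 3 and 1.15% in mouse 2. Bacteroidota was 12.8 percentage points lower on average and below all PBS mice in 5 of 6 mice (exact adjusted p = 0.0333), and Firmicutes_A was 5.95 points lower (exact adjusted p = 0.0333). Actinobacteriota and Firmicutes_B_370539, both under 0.11% in every mouse, were lower too. All 5 also passed when labels were permuted within runs.

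**Figure D3:**
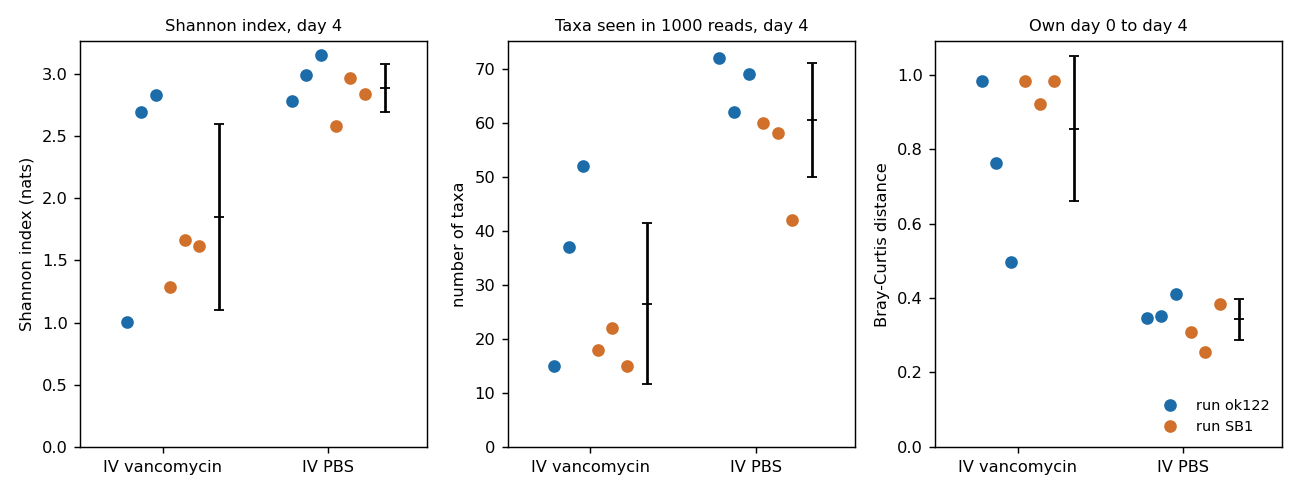
Shannon index at day 4 (nats), number of taxa seen in 1000 reads at day 4, and Bray-Curtis distance between a mouse's own day 0 and day 4 libraries, 1 point for each mouse and coloured by run, with bars for the mean ± SD of 6 mice. Vancomycin mice 2 and 3 of run ok122 lie near or within the PBS mice in Shannon index, whereas all 6 vancomycin mice exceed all PBS mice in distance.

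Alpha diversity was lower with vancomycin at the level of taxa. The Shannon index, which rises with the number and evenness of taxa, was 1.003, 2.70 and 2.83 in vancomycin mice 1, 2 and 3 and 1.29, 1.66 and 1.62 in mice 4, 5 and 6. In PBS mice it ranged from 2.58 to 3.15 (median 2.90). The means were 1.85 ± 0.748 (SD, n = 6) and 2.89 ± 0.197 (SD, n = 6), a difference of -1.04 (two-sided exact permutation p = 0.0130, 0.0325 adjusted over the 15 comparisons of an antibiotic with PBS by route). Mice 2 and 3 lay within the PBS range and the other 4 below it. The adjusted exact p was 0.0510 to 0.0603 when PBS mouse 1, 2, 3, 5 or 6 was left out in turn. The difference turned to 0.323 at family level.

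The number of taxa seen in 1000 reads was 15, 37 and 52 in vancomycin mice 1, 2 and 3 and 18, 22 and 15 in mice 4, 5 and 6. The PBS mice had 42 to 72 taxa (median 61). Only mouse 3 reached the PBS range, and the mean difference was -34 taxa (exact permutation p = 0.00433).

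The mean Bray-Curtis distance, which is 0 for identical and 1 for disjoint communities, was 0.639 over the 15 pairs of vancomycin mice and 0.328 over the 15 pairs of PBS mice. Among vancomycin mice it was 0.783 over the 3 pairs within run ok122 and 0.313 over the 3 pairs within run SB1, and among PBS mice 0.326 and 0.395. The vancomycin mice were thus farther apart than the PBS mice in ok122 and closer together in SB1. These pairs share mice and their spread was not tested. Group explained a share of 0.482 of the squared Bray-Curtis distances (exact permutation p = 0.00216, the smallest that 6 against 6 allows, and 0.0108 adjusted over the 15 comparisons). Vancomycin mouse 3 was the one closest to PBS, at a mean distance of 0.483 to the PBS mice, then mouse 2 at 0.692, with 0.892 to 0.985 for the other 4.

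The shift from each mouse's own day 0 library separated the groups without overlap. From a mouse's first library to its last, the Bray-Curtis distance was 0.982, 0.763 and 0.496 in vancomycin mice 1, 2 and 3, and 0.984, 0.921 and 0.982 in mice 4, 5 and 6. In PBS mice it was 0.255 to 0.411 (median 0.349). The means differed by 0.512 (exact permutation p = 0.00216). Vancomycin mouse 6 and PBS mouse 4 had day 0 libraries of 407 and 529 reads, and with both left out the difference was 0.480 (exact permutation p = 0.00794).

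Much of the day 4 community of the vancomycin mice had not been seen in the same mouse at day 0. Taxa listed at 0 in the mouse's own day 0 library held 97.3%, 26.4% and 14.2% of day 4 reads in vancomycin mice 1, 2 and 3, and 98.1%, 40.1% and 97.3% in mice 4, 5 and 6. In PBS mice the share was 0.894% to 13.4%. The share depends on day 0 depth, which was 28691, 13457, 1563, 6606, 37123 and 407 reads in vancomycin mice 1 to 6, and it was chosen after values were seen and not tested. Parabacteroides_B_862066 was found at day 0 in vancomycin mice 1 (0.0139%) and 5 (0.0215%) and in PBS mouse 1 (0.0215%), and was listed at 0 in the other 9 mice. Parabacteroides distasonis, the species with most of these reads at day 4, was found at day 0 in vancomycin mouse 5 only. In vancomycin mouse 1 and PBS mouse 1 the day 0 reads were named Parabacteroides goldsteinii. Bacteroides_H was found at day 0 in 5 of the 6 vancomycin mice, at 0.0743% to 0.768%. Bacteroides intestinalis, the larger share of this genus at day 4 in vancomycin mice 1, 4, 5 and 6, was listed at 0 in every mouse at day 0.

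The groups did not differ detectably before treatment. In limma's fit of day 0 libraries, 0 of 85 genera passed (0%) and 3 had an unadjusted p under 0.05. Mean Shannon index at day 0 was 2.95 ± 0.435 (SD, n = 6) in the later vancomycin mice and 2.94 ± 0.362 (SD, n = 6) in the later PBS mice. At day 0 the 36 genera that later fell held 84.1% to 93.9% of reads in the vancomycin mice and 81.0% to 94.4% in the PBS mice.

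The 40 genera were chosen by the fit over both runs, which largely fixes their direction in each run, so the values by run are a description. Within run SB1, where 3 mice met 3, limma passed 29 of 95 genera, 26 of them among the 40. The 4 risers had log2 differences of 5.01 to 11.30 there. Within run ok122 limma passed 10, 0 of them higher, and 9 were among the 40. The 4 risers had log2 differences of 2.07 to 6.63 in that run. Vancomycin mouse 1 was the highest of that run in Parabacteroides_B_862066, Escherichia_710834 and Mailhella, and mouse 2 in Bacteroides_H. Escherichia_710834 differed by 11.30 in SB1 and by 4.84 in ok122, and Parabacteroides_B_862066 by 10.67 and 6.63. For Paramuribaculum it was -8.36 in SB1 and -8.95 in ok122.

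The difference between runs was itself tested, and 0 of 95 genera passed in limma's interaction fit (0%), with 5 at an unadjusted p under 0.05. For Escherichia_710834 the interaction was 6.46 ± 2.97 (SE; limma adjusted p = 0.574). The Shannon difference was -0.802 in ok122 and -1.27 in SB1, and the gap of -0.470 did not pass (exact permutation p = 0.425). With 3 against 3 mice an exact test cannot go below 0.10, so no single run could pass alone in the tests of Shannon index, richness and distance.

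**Figure D4:**
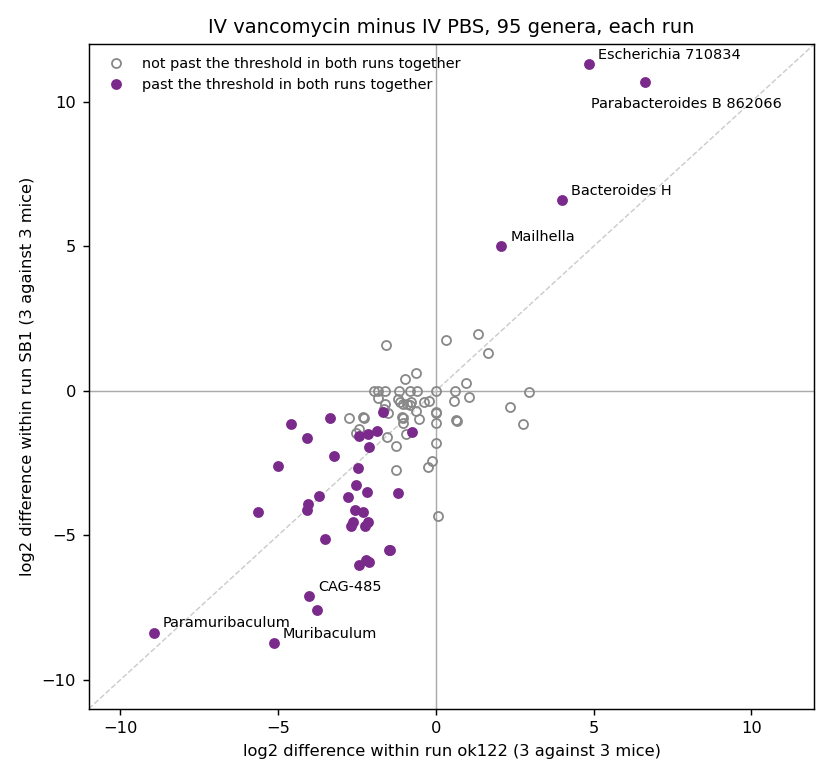
Log2 difference of intravenous vancomycin minus intravenous PBS within run ok122 (horizontal axis) and within run SB1 (vertical axis), 1 point for each of the 95 genera, each from 3 against 3 mice. The 40 filled points were chosen on both runs together, so their agreement between the axes is no independent support. The 4 risers lie above the dashed line of equal difference.

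Vancomycin given by mouth or into the peritoneum, each against PBS of the same route, was set beside the intravenous change; the routes share no mice. For 9 of 95 genera (9.47%) the change by vein differed from that by mouth in limma's interaction fit, 5 more positive and 4 more negative by vein. Bacteroides_H had the greatest such difference, 10.52 ± 1.89 (SE; limma adjusted p = 2.82e-05). It averaged 17.0% ± 15.5 (SD, n = 6) after intravenous and 0.0130% ± 0.0318 (SD, n = 6) after oral vancomycin, against 0.411% and 0.553% in the PBS groups. Parabacteroides_B_862066 differed by 9.40 ± 1.92 (SE; limma adjusted p = 0.000209), with 31.6% after intravenous and 0.0302% after oral vancomycin.

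Mailhella (4.47), UBA7173 (5.95) and Alistipes_A_871400 (6.33) were also higher on the log2 scale by vein than by mouth, relative to PBS. Mailhella was listed at 0 in all 6 oral vancomycin mice. UBA7173 and Alistipes_A_871400, which did not pass by vein, averaged 0.0530% and 0.00742% after oral vancomycin, against 6.02% and 1.02% with oral PBS. A further 3 named genera were lower by vein than by mouth. Borkfalkia, of the class Clostridia, averaged 0.382% after intravenous and 28.9% after oral vancomycin, a difference of -7.91 ± 2.21 (SE; limma adjusted p = 0.00777). Ligilactobacillus, a lactic acid bacterium, averaged 0.0421% and 5.61% (log2 difference -5.15), and Desulfovibrio_R_446353 averaged 0.0198% and 0.360% (log2 difference -4.25). Escherichia_710834 averaged 16.3% by vein and 49.0% by mouth, and its difference did not pass (-2.46 ± 2.15, SE; limma adjusted p = 0.642).

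All 11 oral and all 11 intraperitoneal libraries came from run ok122, whereas the intravenous groups span both runs. Within ok122 alone 9 genera passed against the oral route, 6 of them shared. Bacteroides_H (9.22, limma adjusted p = 0.00692), Parabacteroides_B_862066 (7.39, limma adjusted p = 0.0265), UBA7173, Alistipes_A_871400, Borkfalkia and Ligilactobacillus passed there too. Mailhella (3.00, limma adjusted p = 0.113) and Desulfovibrio_R_446353 (-3.08, limma adjusted p = 0.128) did not pass within that run.

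Against the peritoneal route 0 of 95 genera passed (0%) and 11 had an unadjusted p under 0.05, and this count rests on how near-identical libraries were averaged. Escherichia_710834 had a difference of 7.92 ± 2.20 (SE; limma adjusted p = 0.0523) and Bacteroides_H of 6.47 ± 1.93 (SE; limma adjusted p = 0.0583). Both passed, with limma adjusted p from 0.0303 to 0.0387, under each of the 3 other ways of averaging that were run. They also passed with a pseudocount of 0.1. Within run ok122 alone the differences were 4.69 and 5.17, with a limma adjusted p of 0.734 for both. Escherichia_710834 averaged 16.3% by vein and 0.0349% in the peritoneum, and Bacteroides_H 17.0% and 0.521%. Parabacteroides_B_862066 averaged 31.6% and 19.0%, the latter ranging from 0.0980% to 83.4% over 5 samples from 6 libraries, of which 2 agreed within sampling noise and were averaged.

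**Figure D5:**
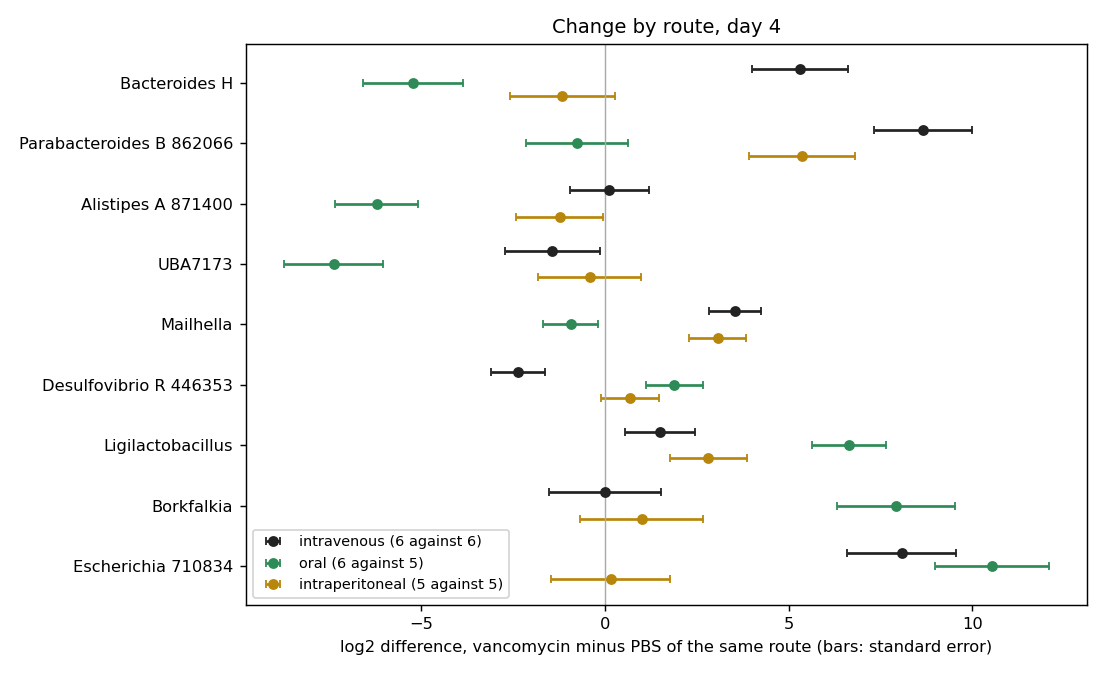
Log2 difference of vancomycin minus PBS of the same route (horizontal axis, points, with bars for the standard error) for the 8 named genera whose change differed between vein and mouth, and for Escherichia. Bacteroides lies above 0 by vein and below 0 by mouth, and Escherichia lies above 0 by vein and by mouth but near 0 in the peritoneum.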

How the data were processed

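The authors' deposited composition table holds a signal scaled to 100000 per library for 488 taxa named at 7 ranks, and empty cells were read as 0. Per the labels' protocols, 30 to 35 PCR cycles preceded sequencing on a MiSeq. How reads were filtered, clustered and named is not given in the sources used here. Each series record is a sequencing run file, so antibiotic, route, day and replicate came from the authors' deposited sample sheets, and days were joined by mouse name. Replicate numbers refer to day 4.

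Values were turned into percent of reads and summed to genus, family and phylum. Reads per library were recovered from the smallest steps (all values whole within 0.02 reads in these libraries) and used for depth, floors (3 reads) and thinning, not for a count model. Floors cover counting error only. Genera present in at least 20% of the 89 day 4 samples were tested with limma 3.58.1 (R 4.3.3) on log2(percent + 0.01), lmFit and eBayes with trend, 1 mean per antibiotic and route, with Benjamini-Hochberg adjustment and a threshold of 0.05. Standard errors and differences are on that scale, which understates changes of rare genera. Single values used two-sided exact permutation tests, and the 924 splits of 6 against 6 allow no p below 0.00216. For the share of squared Bray-Curtis distances, the test counted only splits with a share at least as large as that observed. Standard errors and p-values of limma's main fit rest on a spread pooled over all 18 day 4 groups, those of permutation tests on the mice compared. With only the 2 groups in the fit and run as a block, 38 genera passed. There the limma adjusted p of the 4 risers was 0.000195 (Parabacteroides_B_862066), 0.000412 (Bacteroides_H), 0.00439 (Escherichia_710834) and 0.0128 (Mailhella). Nothing in the labels says whether mice were housed separately. The limma script recovered 20 of 20 genera shifted by 6 on the log2 scale in simulated data of 95 genera, with 2 others called. Recovery of smaller shifts was not tested, and the median log2 difference of the 36 genera that fell was -3.40.

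The comparison, the taxon lists and the tests were chosen with earlier results of these data known. Named genera are those at 10% or more in a library, the 6 largest rises and 10 largest falls past the threshold, the 5 highest in PBS, the 2 highest of each of 15 lists, and the 3 largest in each direction of an interaction. Other genera named to describe a mouse were chosen after their values were seen.

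Libraries of a day 4 group that agreed within sampling noise (chi-square test, scipy 1.17.1) were averaged. This rule took 3 forms, and the one used was settled after genus counts of another form had been seen and set against an earlier count. First, 1 pair was averaged. With taxa under 5 expected reads pooled there were 3 pairs, 1 of them holding a library of 70 reads. With at least 1000 reads also required there were 2 pairs, neither in the groups compared. All forms were run as alternatives added after seeing the data.

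Replicate numbers were not treated as pairs. Deviations of same-numbered mice from their group means correlated at -0.19 to 0.18 over genera, which cannot show whether such mice shared a cage or handling. Other alternatives were the pseudocount, the presence filter, centred log ratios, thinning, run as a block or alone, own day 0 baselines, other ranks, and leaving out each library.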

Additional observations from a re-analysis of the deposited data

Results flagged for a closer look

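The 62 groups of 6 mice examined covered named genera on the log2 scale, Shannon index, taxa in 1000 reads and distance from day 0. In 6 of the 62, 1 mouse stood apart by Dixon's criterion. Chance meets it in about 1 in 20 groups of normal values, a rate that does not hold where several mice are listed at 0. A genus found in only 1 mouse of a group meets it by construction. This applies to Acetatifactor in vancomycin mouse 3, Burkholderia in vancomycin mouse 4 and Escherichia_710834 in PBS mouse 1. Vancomycin mouse 3 stood apart in 3 genera. It was listed at 0% for Mailhella while the other vancomycin mice held 0.170% to 0.333%, and it held 0.571% Odoribacter_865974 and 0.774% Acetatifactor where the others held 0.00196% or less and none. Vancomycin mouse 6 was low in Alistipes_A_871400 at 0.0562%, and vancomycin mouse 4 alone held Burkholderia, at 0.0141%. PBS mouse 1 was the only PBS mouse with Escherichia_710834, at 0.0419% of 35806 reads.

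The change with vancomycin differed between vein and mouth in 8 named genera by limma's interaction test, as log2 differences. Higher by vein were Bacteroides_H (10.52), Parabacteroides_B_862066 (9.40), Alistipes_A_871400 (6.33), UBA7173 (5.95) and Mailhella (4.47). Lower by vein were Borkfalkia (-7.91), Ligilactobacillus (-5.15) and Desulfovibrio_R_446353 (-4.25).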

How the results depend on the processing

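The count of genera past the threshold (40 of 95) stayed within 1.5 times under pseudocounts of 0.1 (35) and 0.001 (47), the 2 groups alone (40), run as a block (38), SB1 alone (29) and leaving out 1 library (36 to 47). Filters changed the number tested as well, with 37 of 279 passing with no filter and 28 of 44 with the 50% filter. Centred values gave 30, but only 22 of these were among the 40 in the same direction, and 12 of the 30 were higher. The count was 23 of 59 thinned, 23 against own day 0 libraries, 10 in ok122 alone and 14 by exact tests. With the replicate block, where numbers are not known to pair mice, the count was 34. Of the other averaging rules for near-identical libraries, added after seeing the data, the first form gave 42, the form with sparse taxa pooled and no depth minimum gave 43, and no averaging gave 41 of 90. Vein against peritoneum gave 2 genera under each of these 3 rules and with a pseudocount of 0.1, and 1 in ok122 alone, against 0; the rule used is the only one of the 4 averaging rules with 0. Vein against mouth gave 9 under every setting run, though not always the same genera. With a pseudocount of 0.1, 8 were shared with the main fit, and in ok122 alone 6 were.

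The Shannon difference was -0.779 at genus level, 0.323 at family level and -1.04 as change from day 0, none past the adjusted threshold. Within ok122 and SB1 it was -0.802 and -1.27, richness differed by -33 and -35, and the share of squared distance was 0.357 and 0.816, in designs too small to pass. Leaving out 1 library gave Shannon differences of -1.23 to -0.867 and shares of 0.449 to 0.626.

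No called genus among those named changed direction under any setting run. Of the 20 named genera past the threshold, 11 lost the call by the exact test per genus and 16 within run ok122 alone. Escherichia_710834, Mailhella and Prevotella lost it in both, each at an exact adjusted p of 0.0533. Within ok122 their limma adjusted p was 0.320, 0.433 and 0.332. Odoribacter_865974 also lost its call with pseudocount 0.1 (limma adjusted p = 0.0511) and from day 0 (0.125). Other losses by limma adjusted p were Dysosmobacter (0.0627 from day 0), unclassified Oscillospiraceae_88309 (0.105 from day 0), Eubacterium_R (0.0504 thinned) and UBA6985 (0.0583 centred). Genera not called changed direction in these cases: Akkermansia (-0.054 in SB1), Alistipes_A_871400 (-0.23 thinned, -0.35 in SB1, -0.19 to 0.95 leaving out 1 library), Streptococcus (0.40 centred), Burkholderia (1.12 centred, 0.42 in SB1, 0.15 from day 0, -0.48 to 0.036 leaving out 1 library) and Borkfalkia (-0.51 with pseudocount 0.001, -1.59 in ok122, -2.23 from day 0, -0.50 to 0.81 leaving out 1 library). The causes were not tested. Depth limits what day 0 libraries of 407 and 529 reads can show of rare genera.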
